A study of Mus musculus with 32 samples.

Results

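Clone E9-3 is 1 of 5 mouse pre-B-cell clones whose rearranged Igκ RNA was sequenced by VJ-seq, and it was set against the other 4 clones (clones 3, 4, 8 and B52). All 5 came from bone marrow pre-B cells of adult F1 mice, offspring of C57BL6 (B6) and Castaneous (Cast) parents. Single cells were expanded by limiting dilution with IL-7 on ST2 stromal cells, and IL-7 was then removed for 48 h to induce rearrangement. The labels name no transgene, deletion or drug for any clone, and each clone is a line grown from 1 cell, represented here by 1 library of the 32 samples in the series. In late passages, clone 3 apparently lost most of the Vκ region on its Cast allele. The authors describe this loss, but not the passage of the library used here. The library of clone 3 held 80861 Cast reads, with 80 segments read on Cast. Whether some of its cells carried the loss was not tested. The members described are Vκ segments chosen by their B6 share, the percent of a segment's reads that carried the B6 allele: those with at least 10 reads in each clone whose favoured allele, the one above 50%, was opposite in E9-3 to that of the other clones. Of 112 segments counted, 93 had enough reads, and 6 of these (6.45%) were opposite to all 4 other clones. A library of a pre-B-cell pool of the same strain cross was used beside the clones.

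A κ light chain gene is assembled when the RAG recombinase joins 1 Vκ segment to a Jκ segment upstream of the constant exon Cκ. RAG cuts at the recombination signal sequence (RSS) that borders each segment, which consists of a heptamer, a spacer and a nonamer. A Vκ segment that points the same way as Jκ is joined by deleting the DNA in between, and one that points the other way by inverting it. In an F1 cell each allele can be joined, and the single nucleotide differences between the strains tell which allele a rearranged transcript came from.

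Apart from the time-course library described below, E9-3 was the shallowest library used, with 34291 reads assigned to an allele. The other clones had 64672 to 165679 and the pool 320951. The other 19 segments were under 10 reads in at least 1 clone, 17 of them in E9-3, but the 93 tested segments held 99.8% of E9-3 reads. Of the 93, 14 had under 3 reads on one of the alleles over all 5 clones together, so that for them no switch could be seen. Intervals given are 95% Wilson intervals, and 3 reads were taken as the detection limit, which is 0.0163% of the B6 reads and 0.0189% of the Cast reads of E9-3. Because the table compared holds 1 library per clone, differences between clones have no replicate check, and an exact permutation of 1 clone against 4 could not reach a one-sided p below 0.2, so no p is given. As a measure of the spread between libraries, a second 48 h library of clone 4, from a time course and with 10958 reads, was set against the first. Over 84 segments with at least 10 reads in both, the B6 share of a segment differed between them by a median of 7.90 percentage points, with a 95th percentile of 40.7 and a largest difference of 60.2, and 11.9% of the segments favoured opposite alleles.

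The sequences that border the break are shown first, because RAG recognises them at each joining. These are the RSS of the 6 opposite segments and of Igkv9-123, read 5′ to 3′ on the strand of the segment in mm10, with the heptamer and the nonamer in capitals and the 12-base spacer in lower case.
Igkv12-38: CACAGTGattcaagccatgACATAAACC
Igkv5-37: CACAGTGatgcagaccataGCAAAAACC
Igkv13-84: CACAGTGatacaagccatgACATAAACC
Igkv1-132: CACAGTGatacagaccctaTCAAAAACT
Igkv4-63: CACAGTGatacagactggaAAAAAACCT
Igkv3-7: CACAGTGctccagggctgaACAAAAACC
Igkv9-123: CACAGTGatacaaatcataACATAAACC
Each of these 7 segments carried the heptamer CACAGTG, which 83.9% of the 112 segments carry at this place. Igkv3-7 also carried the nonamer ACAAAAACC, found in 33.9% of the segments. Igkv12-38, Igkv13-84 and Igkv9-123, which favoured B6 in E9-3, had the nonamer ACATAAACC, found in 24.1%, whereas Igkv5-37, which also favoured B6, had GCAAAAACC. The sequence of the Cast allele was not analysed here. Of the 6 opposite segments, Igkv1-132 (chr6:67759700-67760413), Igkv13-84 (chr6:68939602-68940067) and Igkv3-7 (chr6:70607437-70608036) lie on the plus strand, as does Cκ (chr6:70726435-70726966). Igkv4-63 (chr6:69377944-69378472), Igkv12-38 (chr6:69943186-69943648) and Igkv5-37 (chr6:69963312-69963873) lie on the minus strand. All 6 are annotated as functional genes and lie between 118.4 and 2966 kb from Cκ.

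Over all segments, 53.7% (53.1 to 54.2) of E9-3 reads were on the B6 allele, between the 51.2% of clone 3 and the 62.9% of clone 8. Clone B52 had 65.8%, clone 4 had 71.8% and the pool had 57.4%. B6 was the favoured allele at 62 of the 93 segments in E9-3, against 53 to 75 in the others. E9-3 was therefore neither the most B6 nor the most Cast of the clones, and its switches ran in both directions. Of the 6 segments opposite to all other clones (6.45% of the 93), 3 favoured B6 in E9-3 (3.23%) and 3 favoured Cast (3.23%). Counted the same way, each of the other clones against the remaining 4, clone 3 stood alone at 8 segments, all favouring Cast, clone 8 at 4, clone 4 at 2 and clone B52 at 2. A count of 6 thus lay within the range of the other clones. Without clone 3, 12 segments were opposite to all of the remaining clones.

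Counting each segment by the number of clones it opposed, 50 were on the same side in E9-3 as in all 4 others, 16 were opposite to 1, 13 to 2, 8 to 3 and 6 to 4. The 14 segments opposite to at least 3 clones made up 15.1% of those tested. Their number was 8 where the interval of each share had to exclude 50%, and 22 without clone 3 and 25 without clone B52, where opposite to 2 of the remaining 3 clones was enough. The 6 segments carried 18.9% of E9-3 reads, of which Igkv3-7 alone gave 12.5%, against 3.50% to 5.91% in clones 3, 4 and 8 and 21.3% in clone B52. In 23 segments (24.7%) the B6 share of E9-3 fell outside the range of the other clones, above it in 10 and below it in 13. In only 3 of them, Igkv1-132, Igkv12-38 and Igkv5-37, did the gap to the nearest clone exceed 40.7 points. That is the 95th percentile of the clone 4 differences, and only the gap of Igkv1-132 exceeded the largest of them. Segments were picked out by this same share, so the gaps are a description and not a test.

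**Figure D1:**
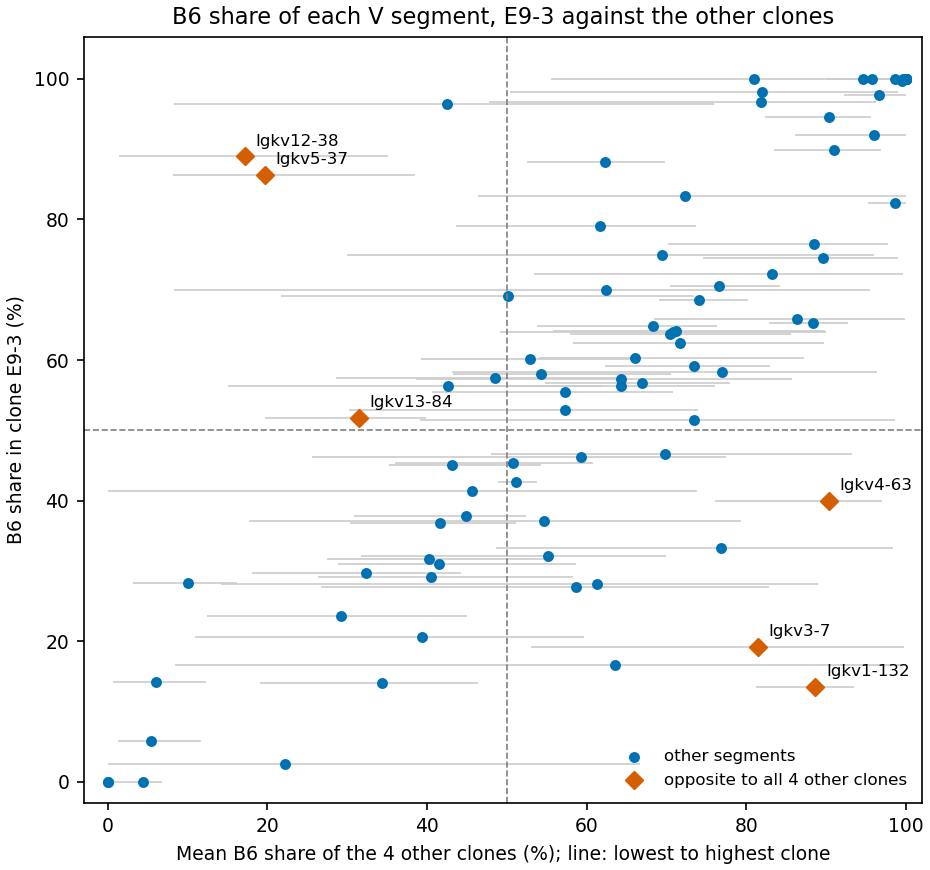
B6 share (percent of a segment's reads on the B6 allele) in clone E9-3 on the vertical axis against the mean of the 4 other clones on the horizontal axis, for the 93 segments with at least 10 reads in each clone. Each grey line runs from the lowest to the highest of the other clones, and the 6 diamonds, opposite to all 4, are the only points whose whole line lies across the 50% midpoint from E9-3.

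Igkv12-38 had the largest swing towards B6. Its B6 share was 89.0% (87.0 to 90.7) in E9-3, from 1018 B6 and 126 Cast reads, whereas clones 3, 4, 8 and B52 had 12.8%, 35.1%, 19.2% and 1.46%. The pool, at 24.7%, lay with the other clones. E9-3 lay 53.9 points above clone 4, the nearest, and did not overlap with any clone. The difference lay on the B6 allele: Igkv12-38 made up 5.53% of the B6 reads of E9-3 and between 0.0044% and 0.168% in the other clones, a 32.9-fold excess (95% counting interval 26.1 to 42.0) over the highest. On the Cast allele it made up 0.793% in E9-3, against 0.498% to 0.788%. It was the third most read B6 segment of E9-3, whereas clone B52 had 2 B6 reads of it.

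Igkv1-132, at the distal end of the locus, swung the other way. Its B6 share was 13.5% (11.2 to 16.3) in E9-3, from 94 B6 and 600 Cast reads, against 90.3%, 89.7%, 81.2% and 93.5% in the same order of clones. The pool had 85.7%. The other clones lay close together, and E9-3 lay 67.7 points below the nearest, the largest gap of the 6. Here the Cast allele differed: Igkv1-132 took 3.78% of the Cast reads of E9-3 and between 0.0296% and 0.163% in the other clones, which is 23.2-fold (18.1 to 30.0) above clone 8, the highest. Its percent of the B6 allele, 0.511%, lay between the 0.220% of clone B52 and the 1.06% of clone 3.

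The next largest gap was that of Igkv5-37, at 47.8 points from clone B52, but it rested on few reads. With at least 50 reads required in each clone, Igkv5-37 was no longer among the opposite segments. E9-3 had 19 B6 and 3 Cast reads of it, a B6 share of 86.4% (66.7 to 95.3), where clones 3, 4, 8 and B52 had 10.2%, 21.7%, 8.19% and 38.6% and the pool 7.45%. The Cast allele was low in E9-3, at 0.0189% of Cast reads against 0.423% to 4.74%, a ratio of 22.4 below clone 3 with a counting interval of 7.60 to 109. On B6 it made up 0.103% in E9-3, inside the range of 0.0460% to 0.270%.

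Igkv3-7, near Cκ, carried the most reads of the opposite segments. It gave 12.5% of all E9-3 reads, 827 on B6 and 3474 on Cast, and its B6 share was 19.2% (18.1 to 20.4). Clones 4 and 8 read it almost only on B6, at 99.7% and 99.0%, clone 3 at 74.1% and clone B52 at 53.0%. Only the pool, at 41.6%, also favoured Cast. At 21.9% it was the most read segment on the Cast allele of E9-3, but clone B52 had 27.7%, clone 3 2.27%, clone 8 0.0407% and clone 4, with 2 reads, 0.0109%. On B6, E9-3 with 4.49% lay between clone 8 (2.34%) and clone 3 (6.18%), and neither allele alone was outside the range of the clones. The gap of 33.7 points to clone B52 was below the 95th percentile of the clone 4 differences. With each allele scaled to its own total, the share of clone B52 was 36.9% and Igkv3-7 was no longer opposite to it.

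Igkv4-63 and Igkv13-84 were nearer the midpoint. Igkv4-63 had 14 B6 and 21 Cast reads in E9-3, a share of 40.0% (25.6 to 56.4) whose interval includes 50%, below clone 3 at 76.1% and the other clones at 91.5% to 97.1%. Both alleles shifted by small factors. Its percent of the B6 allele was 1.91-fold (1.06 to 3.68) below the lowest clone, and its percent of the Cast allele 1.91-fold (1.10 to 3.20) above the highest. Igkv13-84 was the member just inside the threshold, at 51.8% (45.9 to 57.6) from 143 B6 and 133 Cast reads, where the other clones ran from 19.7% (clone 8) to 39.9% (clone 4). With each allele scaled to its own total it was at 48.1% in E9-3. In the time-course library of clone 4 its share was 57.7%, above that of E9-3. Its percent of the B6 allele was 0.777% in E9-3, 2.47-fold (1.95 to 3.13) above clone 4, the highest of the others, but under 2-fold above the time-course library, at 0.488%. Just outside the threshold was Igkv6-25, at 46.6% in E9-3, which clone 3 also read below the midpoint, at 48.0%.

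**Figure D2:**
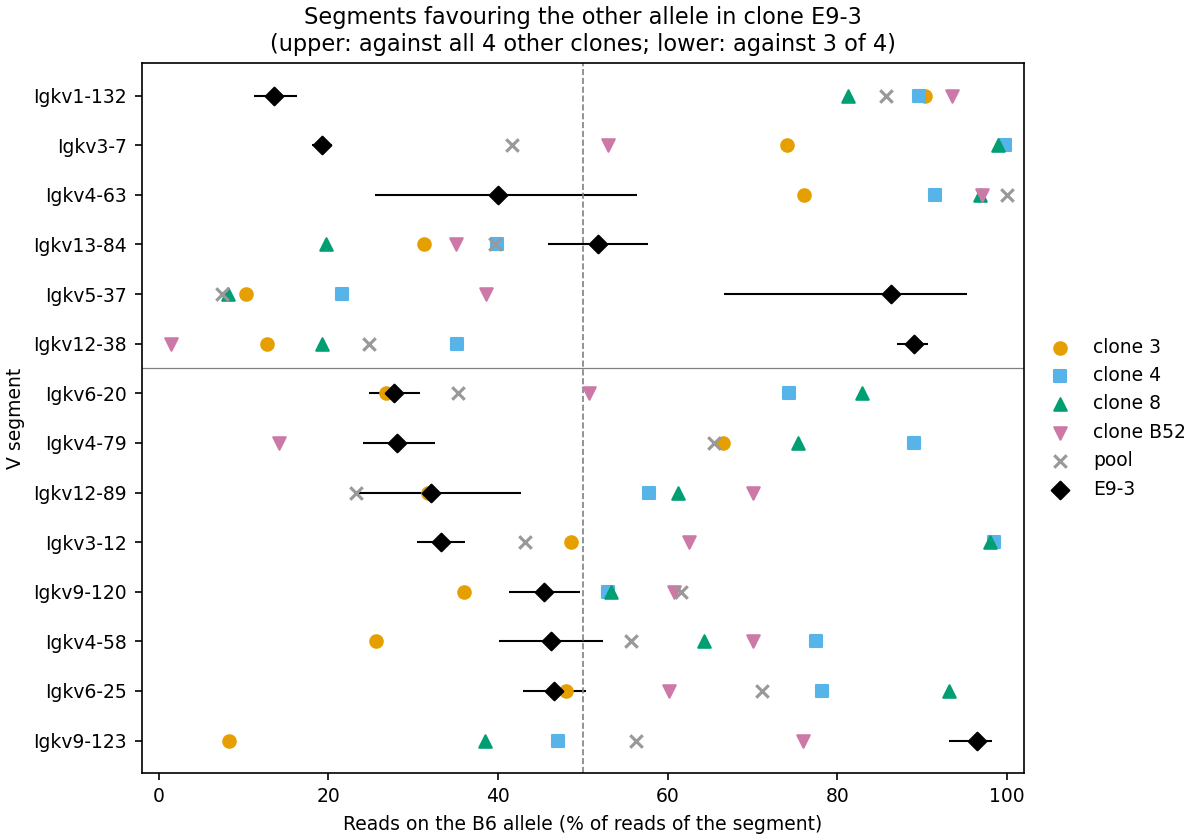
B6 share (horizontal axis, percent of a segment's reads) of the 14 segments opposite in E9-3 to at least 3 of the other clones (vertical axis), 1 point per library, with the 95% Wilson interval of E9-3. The upper 6 segments are opposite to all 4 clones. Among them, the intervals of E9-3 for Igkv4-63 and Igkv13-84 cross 50%, while those of the other upper segments lie clear of 50% and of every other clone.

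Of the 8 segments opposite to 3 of the 4 clones, Igkv9-123 was the one that favoured B6 in E9-3, with 218 B6 and 8 Cast reads and a share of 96.5% (93.2 to 98.2). Clone 3 had 8.33%, clone 4 47.1%, clone 8 38.5% and clone B52, on the same side as E9-3, 76.0%. The other clones had 13 to 60 reads of Igkv9-123 on both alleles together, so their shares are imprecise. In the time-course library of clone 4, with 9 B6 reads and 1 Cast read, the share was 90.0%, and with it Igkv9-123 was no longer opposite to 3 clones. Its percent of the B6 allele was 1.18% in E9-3 and at most 0.0835% in the others, a 14.2-fold excess (10.0 to 20.6) over clone B52. The remaining 7 favoured Cast in E9-3. In Igkv9-120 (45.4%), Igkv12-89 (32.1%), Igkv4-58 (46.2%), Igkv6-25 (46.6%), Igkv6-20 (27.7%) and Igkv3-12 (33.2%) the clone that sided with E9-3 was clone 3. At Igkv4-58 the time-course library of clone 4 also favoured Cast, at 40.7%, and with it the segment was opposite to fewer than 3 clones. With each allele scaled to its own total, Igkv9-120, Igkv12-89, Igkv6-25, Igkv6-20 and Igkv3-12 were also opposite to fewer than 3. In Igkv4-79 (28.1%) the clone that sided with E9-3 was clone B52, at 14.2%. The pool favoured the same allele as E9-3 at Igkv9-123 (56.3%), Igkv12-89 (23.2%), Igkv6-20 (35.2%) and Igkv3-12 (43.2%). It favoured the other allele at Igkv9-120 (61.6%), Igkv4-58 (55.6%), Igkv6-25 (71.1%) and Igkv4-79 (65.5%). Igkv3-12 is an Igkv3 segment 89.2 kb from Igkv3-7. It stood at 98.4% and 98.0% in clones 4 and 8, 62.5% in clone B52 and 48.6% in clone 3. That order also held for Igkv3-7 except that clone 3 and clone B52 changed places. The other tested Igkv3 segments were opposite to fewer than 3 clones. Igkv3-1 favoured Cast in E9-3 (37.1%), as in clone 3 (17.6%) and clone B52 (46.7%), but favoured B6 in clone 4 (79.3%) and clone 8 (74.7%). Igkv3-4, 64.4 kb from Igkv3-7, had 72.2% in E9-3 against 53.4% to 99.7% in the other clones. Igkv3-2 had 99.7% in E9-3 against 98.4% to 100%. Like Igkv3-3 and Igkv3-10, it was read only or almost only on B6 in every clone.

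For the 3 segments with the largest excess on one allele of E9-3, the V exon in mm10, the B6 sequence, shows the bases that differ from a relative. The excess of Igkv1-132 lies on the Cast allele, whose sequence was not analysed here. Each exon is given 5′ to 3′ on the strand of the segment in mm10, with the bases that differ from its closest relative with at least 10 reads in E9-3 in capitals. Igkv12-38 is the whole V exon (chr6:69943186-69943483, minus strand) against Igkv12-44, Igkv1-132 the last 300 bases of the V exon (chr6:67760114-67760413, plus strand) against Igkv1-133, and Igkv9-123 the whole V exon (chr6:67954230-67954525, minus strand) against Igkv9-124.
Igkv12-38: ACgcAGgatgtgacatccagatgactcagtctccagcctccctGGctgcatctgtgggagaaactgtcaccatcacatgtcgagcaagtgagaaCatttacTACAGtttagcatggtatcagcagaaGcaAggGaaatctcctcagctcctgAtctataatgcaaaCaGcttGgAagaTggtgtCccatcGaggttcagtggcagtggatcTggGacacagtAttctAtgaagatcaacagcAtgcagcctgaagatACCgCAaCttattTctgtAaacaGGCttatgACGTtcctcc
Igkv1-132: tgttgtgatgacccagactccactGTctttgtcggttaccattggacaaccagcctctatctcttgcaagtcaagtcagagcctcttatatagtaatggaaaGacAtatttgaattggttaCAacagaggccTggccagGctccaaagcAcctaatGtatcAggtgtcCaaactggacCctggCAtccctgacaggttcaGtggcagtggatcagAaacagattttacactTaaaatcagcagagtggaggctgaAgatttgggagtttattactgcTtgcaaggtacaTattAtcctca
Igkv9-123: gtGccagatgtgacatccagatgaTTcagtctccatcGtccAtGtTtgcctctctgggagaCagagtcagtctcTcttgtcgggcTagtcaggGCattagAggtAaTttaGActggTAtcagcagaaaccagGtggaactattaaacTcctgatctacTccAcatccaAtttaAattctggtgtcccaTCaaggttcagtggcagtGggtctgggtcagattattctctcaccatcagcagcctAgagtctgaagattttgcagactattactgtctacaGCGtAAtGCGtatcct
Igkv12-38 differed from its relative at 43 bases, Igkv1-132 at 22 and Igkv9-123 at 37. Identity over the V exon was 85.6% for Igkv12-38 and 87.5% for Igkv9-123, but 92.97% for Igkv1-132, with a median of 92.4% over the segments with at least 10 reads in E9-3. Igkv12-44 had no Cast read in E9-3 and took 2.33% of its B6 reads, within the 1.86% to 2.81% of the other clones. Igkv9-124 had a B6 share of 14.2% in E9-3, on the opposite side from Igkv9-123. Among the other opposite segments, Igkv13-84 was 97.0% identical to Igkv13-85, of which no Cast read was counted in any clone, and Igkv3-7 was 96.8% identical to Igkv3-12, pairs whose short reads are harder to tell apart, and the part of this in the counts was not tested.

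Igkv12-38 lies in a run of minus-strand segments of which others were also outside the range of the clones on an allele. Over the locus this was so above the range for 15.2% of segments on B6 and 12.3% on Cast, and below it for 10.1% and 16.0%. Igkv5-39, 42.8 kb away, made up 1.83% of the B6 reads of E9-3, 2.46-fold (2.14 to 2.82) above clone 8, the highest of the others, and had a B6 share of 88.2% against 52.5% to 69.8%. In the time-course library of clone 4 these were 1.24% and 79.4%, so that the excess was under 2-fold against that library. Igkv5-37 lies 20.1 kb to the other side. Igkv12-40, 63.8 kb away, was read on the Cast allele alone in all 5 clones and in the pool. In mm10, the B6 sequence, its RSS is the same, base for base, as that of Igkv12-38, but the Cast RSS was not analysed. Igkv12-40 took 0.296% of the Cast reads of E9-3, 1.50-fold (1.05 to 2.16) below the lowest other clone. Igkv18-36, 49.3 kb away, was above every other clone on both alleles, at 0.641% of B6 reads (1.53-fold, 1.23 to 1.89) and 1.27% of Cast reads (1.26-fold, 1.08 to 1.48), and favoured Cast with 36.9% (31.8 to 42.3) on B6. Igkv12-41, 84.8 kb away, was within the range of the other clones on both alleles. Beside Igkv1-132, Igkv1-133 (34.8 kb away) also had a lower B6 share in E9-3, 65.3% (60.6 to 69.6) against 82.8% to 92.8%, but stayed on the B6 side. Its Cast percent, 0.932%, was within the range of the other clones.

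**Figure D3:**
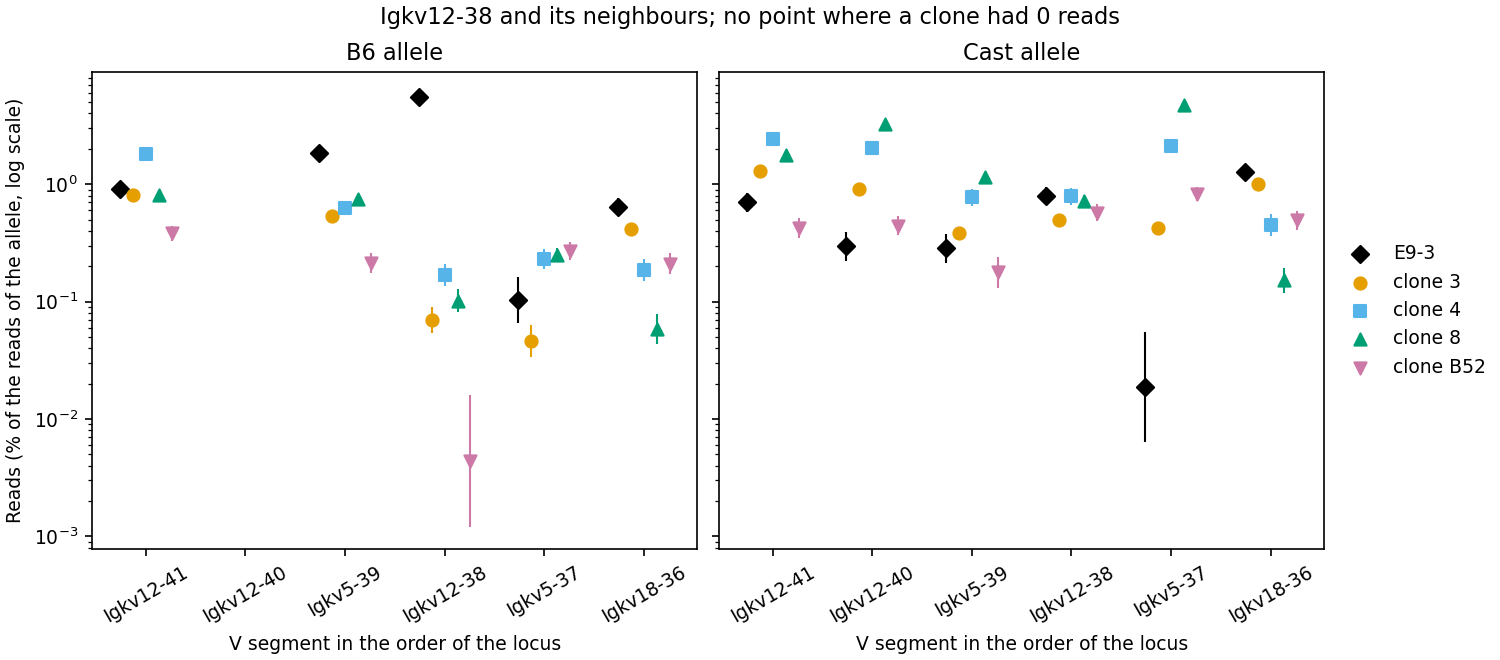
Percent of the reads of the B6 allele (left) and the Cast allele (right) taken by Igkv12-38 and its neighbours, in locus order, on a log scale, with 1 point per clone and 95% Wilson intervals. The B6 point of E9-3 stands 32.9-fold above the next clone at Igkv12-38 and 2.46-fold at Igkv5-39, and its Cast point stands below all others at Igkv5-37 and Igkv12-40.

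Over the whole locus, the repertoire of each allele in E9-3 mostly lay inside the range of the other clones. On B6, 15 of 99 segments (15.2%) with at least 10 reads on that allele in any clone were above all other clones and 10 (10.1%) below. At least 2-fold above were Igkv12-38, Igkv9-123, Igkv13-84 and Igkv5-39 (4.04%). At least 2-fold below were Igkv3-10, with 10 reads in E9-3 (2.50-fold, 1.31 to 5.34), and Igkv4-59, with 28 reads (2.16-fold, 1.46 to 3.31), which make 2.02%. On Cast, 10 of 81 segments (12.3%) were above and 13 (16.0%) below. Igkv1-132 alone was at least 2-fold above (1.23%), and Igkv5-37 and Igkv19-93 at least 2-fold below (2.47%). The 9 such differences on both alleles became 27 without clone 3 and 28 without clone B52, and 6 with the time-course library of clone 4, where Igkv13-84, Igkv5-39 and Igkv3-10 on B6 were lost. Igkv19-93 had 17 Cast reads in E9-3, 2.60-fold (1.59 to 4.54) below clone 3, and 508 B6 reads, 1.32-fold (1.20 to 1.45) below clone 8. No segment with at least 10 reads on an allele in all 4 other clones was under the detection limit in E9-3, on either allele.

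The most read B6 segments of E9-3 were Igkv1-135 with 9.09%, Igkv3-2 with 8.52%, Igkv12-38 with 5.53%, Igkv3-7 with 4.49% and Igkv3-4 with 4.27%. Igkv1-135 (0.413% to 7.02%) and Igkv3-4 (1.11% to 3.38%) were above every other clone, and Igkv3-2 was within their range (1.14% to 9.73%). On Cast they were Igkv3-7 with 21.9%, Igkv2-137 with 6.73%, Igkv1-135 with 4.71%, Igkv3-12 with 4.49% and Igkv6-20 with 4.01%. Igkv2-137, the segment farthest from Cκ, was read almost entirely on Cast in E9-3, with a B6 share of 5.73%, but was 1.30-fold (1.21 to 1.40) below the lowest of the other clones, which had 8.74% to 14.4%. The 5 most read segments gave 31.9% of the B6 reads and 41.8% of the Cast reads of E9-3, against 21.3% to 46.1% and 35.0% to 58.6% in the other clones.

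**Figure D4:**
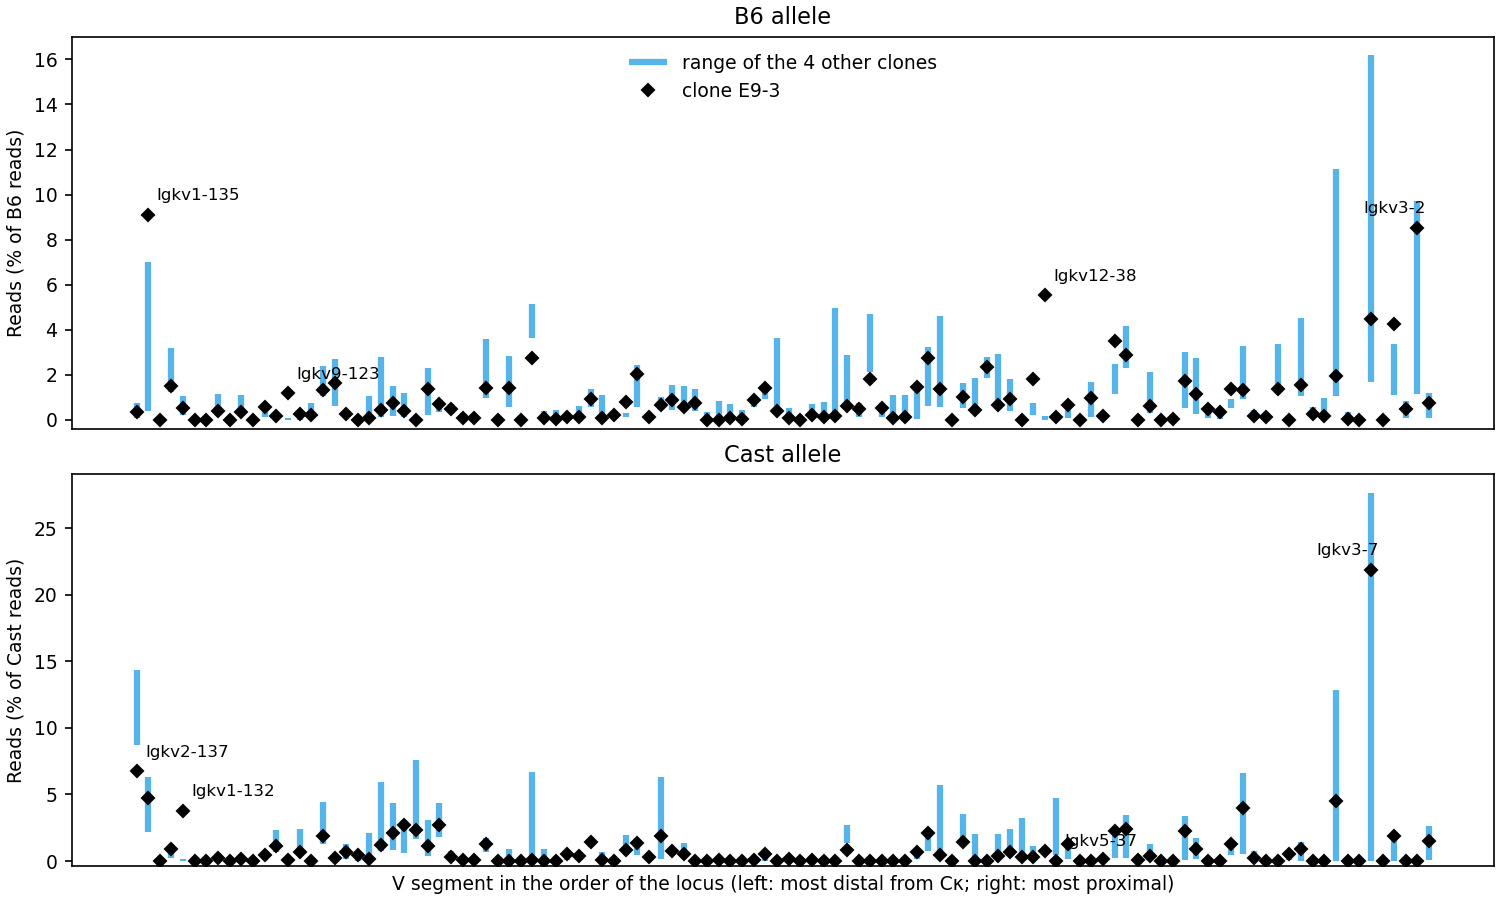
Percent of the reads of each allele (vertical axes; B6 above, Cast below) for all segments in the order of the locus, from the most distal on the left to the most proximal on the right, with E9-3 as diamonds and the range of the 4 other clones as bars. E9-3 stands clear above the bars at Igkv12-38 and Igkv9-123 on B6 and at Igkv1-132 on Cast, while its high Cast value at Igkv3-7 lies within the bar.

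By family, named by the first number of a segment, E9-3 was above every other clone on B6 in 5 of 19 families and below in 1, and on Cast above in 2 and below in 2. On B6 it was above in Igkv12, with 9.99% of B6 reads against 2.90% to 6.89%, of which Igkv12-38 gave 5.53%. It was also above on B6 in Igkv13 (1.00% against 0.218% to 0.464%) and Igkv11 (0.570% against 0.121% to 0.426%), and in Igkv7 and Igkv18, which have 1 segment each. On Cast it was above in Igkv1, with 14.5% against 5.19% to 12.8%, and below in Igkv5, with 1.08% against 2.08% to 15.4%. Igkv18 was also above on Cast, and Igkv19, with Igkv19-93 as its one segment, was below on both alleles. The Igkv3 family, which holds the segments nearest Cκ, gave 20.5% of B6 reads and 29.8% of Cast reads in E9-3, in both cases between clone 3 and clone B52. The percent of reads on plus-strand segments was 46.8% on B6 and 66.8% on Cast in E9-3, inside the ranges of 28.1% to 59.4% and 49.5% to 69.8%. Pseudogenes gave 2.21% and 4.36%, also inside the ranges, as did each of 4 zones of distance to Cκ.

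Among the 7 segments that the study also followed by allele-specific restriction analysis, none was opposite in E9-3 to 3 or more clones by raw reads. With each allele scaled to its own total, Igkv16-104 and Igkv7-33 were opposite to all 4. E9-3 favoured B6 in Igkv19-93 with 96.8% (94.9 to 98.0), Igkv4-91 with 83.3% from 12 reads (55.2 to 95.3), Igkv6-32 with 64.2% (61.2 to 67.1) and Igkv16-104 with 57.4% (52.7 to 62.0). Igkv7-33 was on the B6 side at 56.4% (43.3 to 68.6), with an interval that includes 50%, as for Igkv13-84 and Igkv4-63 above. E9-3 favoured Cast in Igkv15-103 with 23.6% (20.3 to 27.3) and Igkv18-36. On the other side from E9-3 were clone 3 (42.9%) and clone 8 (28.5%) in Igkv16-104, and clone 3 (36.6%) and clone 8 (15.0%) in Igkv7-33. So were clone 3 in Igkv4-91 (46.4%), clone 4 in Igkv18-36 (51.2%) and clone 8 in Igkv19-93 (47.8%), and no clone in Igkv6-32 and Igkv15-103.

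Compared clone by clone, the shares of E9-3 were nearer to those of clone B52 and clone 3 than to those of clones 4 and 8. E9-3 and clone B52 favoured opposite alleles in 16 of 93 segments (17.2%), E9-3 and clone 3 in 22 of 95 (23.2%), E9-3 and clone 4 in 25 of 95 (26.3%) and E9-3 and clone 8 in 28 of 94 (29.8%), with at least 10 reads in both of a pair. The median absolute difference in B6 share was 8.0 points against clone B52, 6.19 against clone 3, 13.0 against clone 4 and 16.8 against clone 8. That against clone 3 was smaller than the 7.90 points between the libraries of clone 4, whose second library was shallower. Over the same segments Pearson's r was 0.787 with clone B52, 0.786 with clone 3, 0.646 with clone 4 and 0.522 with clone 8, as a description across segments, which share their library and are not independent. On the Cast allele the Bray-Curtis dissimilarity, 0 for identical and 1 for disjoint repertoires, was lowest with clone B52 at 0.272 and highest with clone 8 at 0.573. On B6 it was lowest with clone 3 at 0.283 and highest with clone 8 at 0.454. Drawn down to the 34291 reads of E9-3, 97.9 to 103.9 segments would be expected with at least 3 reads in the other clones, and E9-3 had 99.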

How the data were processed

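Rearranged Igκ RNA of 5 pre-B-cell clones and a pool was analysed, with a second 48 h library of clone 4. The deposited values are raw read counts, which the authors made by trimming with Trim Galore, aligning with Bowtie2 to a B6/Cast hybrid of mm10 and counting reads per Vκ segment and allele with HTSeq; versions are not given in the sources used here. Reads have no molecular identifiers, so intervals and limits cover counting error only. The methods name more than one read length without saying which library had which, so the assignment of reads to alleles may differ between libraries, which was not tested.

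Percents of library and allele, B6 shares, Wilson intervals, exact conditional intervals of fold ratios and expected segment numbers at 34291 reads were calculated in Python 3.11.15 using pandas 2.3.3, SciPy 1.17.1 and NumPy 2.4.6. Biopython 1.88 aligned the V exons, and matplotlib 3.10.9 drew the plots. The counting of opposite segments was tested on simulated data. No count model was fitted: of the clones, clone 4 alone has a second 48 h library, which comes from a separate table. Positions and strands of 111 segments came from GENCODE M21, and exons and sequences from RefSeq, both on mm10. An RSS was the best match near the end of the V exon.

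The segments named are those opposite to 3 or 4 clones, the 5 most read per allele, up to 5 with the largest fold beyond the other clones per allele and direction (named where at least 2-fold or beside a result), those of the restriction analysis, and neighbours or relatives of these. The clone, members and lists were chosen with earlier results of these data known. Alternatives varied the read minimum, the rule for the favoured allele, the scaling of alleles, the segments and clones included, the fold, the detection limit and the clone 4 library. The ATAC-seq and RNA-seq samples were not used here.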

Additional observations from a re-analysis of the deposited data

Results flagged for a closer look

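Among the 5 clones, 21 values were tested for 1 clone lying far from the others relative to the range. The B6 share of Igkv1-132 stood out in E9-3, at 13.5% with the other clones at 81.2% to 93.5%. Segments were chosen by this share, so its distance is a description and no rate of chance applies to it. The 5 most read Cast segments stood out in clone B52, where they took 58.6% of its Cast reads, against 41.8% in E9-3. For library values of this kind, which were not used to choose segments, chance would mark about 1 in 20 groups.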

How the results depend on the processing

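The B6 share of E9-3, 53.7%, was 58.6% without its most read segment Igkv3-7 and 52.7% over segments read on both alleles. The 6 segments opposite to all other clones became 12 without clone 3 and 6 to 12 over the removal of each clone. The count was 4 at 50 reads (Igkv4-63 and Igkv5-37 lost), 4 where intervals had to exclude 50% (Igkv13-84 and Igkv4-63 lost), 5 with the time-course library of clone 4 (Igkv13-84 lost) and 7 with each allele scaled to its total (Igkv13-84 and Igkv3-7 lost; Igkv12-41, Igkv16-104 and Igkv7-33 gained). Igkv12-38 and Igkv1-132 were in the list under each of these. The 14 opposite to at least 3 became 8 where intervals had to exclude 50%, 22 without clone 3 and 25 without clone B52 (17 to 25 over the clones left out, where most means 2 of the remaining 3), and 13 with the time-course library (Igkv9-123 and Igkv4-58 lost, Igkv1-88 gained). With each allele scaled it was 12, 8 of them shared (Igkv9-120, Igkv12-89, Igkv13-84, Igkv6-25, Igkv6-20 and Igkv3-12 lost). The 9 segments at least 2-fold beyond all other clones were 20 at 1.5-fold, 4 at 3-fold, 27 without clone 3 and 28 without clone B52 (10 to 28), 6 with the time-course library and 11 by percent of the library, 8 of them shared (Igkv13-84 lost in both). The gap of Igkv13-84 to the nearest clone, 11.9 points, was -5.93 with the time-course library. The cause of these changes was not tested, beyond the smaller number of clones to differ from. No paired analysis was possible because the clones compared share no replicate numbers beyond 1 library each, and the second 48 h library of clone 4 has no counterpart in another clone. Depth limits Igkv5-37 and Igkv4-63 in E9-3, at 22 and 35 reads.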

Other observations

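At Igkv18-36 the pool had 0 B6 and 287 Cast reads, which, with the detection limit of 3 reads, allows a B6 share of up to 1.05%, whereas E9-3 and each other clone read both alleles.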
